A study of Mus musculus with 6 samples.

Results

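The genes described here carry glucose into the brown adipocyte, break it down to pyruvate and lactate, pass pyruvate to the mitochondrion, and store glucose as glycogen or release it again. They were taken as a list of 37 genes, set by step of the pathway, and their rows were found by gene symbol among the 54385 rows of the deposited count table. All 37 had a row, and all 37 passed the filter on low counts that left 14332 genes for testing. The members were listed by function, with earlier results of these data known.

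The libraries were polyadenylated RNA of brown adipose tissue from C57BL/6N mice aged 20 weeks and fed chow. They fall into 2 groups, wild type (WT, labelled wt/wt, n = 3) and the knockout of the adenylyl cyclase 3 form called Adcy3-AT (ADCY3∆AT, n = 3). Each sample's own labels call the tissue interscapular, whereas the text for the whole series calls it inguinal. The series title names a truncated, cold-induced form of adenylyl cyclase 3 in the control of brown fat, and the comparison asks how expression differs without it; the labels give no cold exposure for these animals. The sources used here give neither the litters nor whether each library came from its own mouse.

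Brown fat takes up glucose through GLUT4, the transporter that insulin brings to the cell surface, and hexokinase traps it as glucose 6-phosphate. From there it either runs down glycolysis, whose pace is set largely at phosphofructokinase-1 and by fructose 2,6-bisphosphate, or is added to glycogen by glycogen synthase. Glycogen phosphorylase releases it again, and cyclic AMP, the product of adenylyl cyclases, is a classical signal for that release.

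The targeted locus was checked in every library. The row of Adcy3 held 248, 209 and 166 CPM (counts scaled to the size of the library) in WT and 168, 195 and 240 CPM in ADCY3∆AT, and the groups overlapped (log2 fold change of -0.05, edgeR adjusted p = 0.894). A row without a gene symbol, whose identifier ends in the same digits as that of Adcy3, held 215, 197 and 118 CPM in WT and 1.27, 0 and 0 CPM in ADCY3∆AT (edgeR adjusted p = 0.000845). Totals ran from 13758492 to 19592156 estimated counts per library. The 9 brown adipocyte markers summed to between 17180 and 17670 CPM in WT and between 15430 and 16190 CPM in ADCY3∆AT. None of these 9 was at or near 0, and edgeR called 0 of them at an adjusted p under 0.05 (0 with an unadjusted p under 0.05, and 0 by DESeq2 or limma-voom). Markers of skeletal muscle differed between the groups and are given beside the genes they touch. The 4 Schwann cell markers summed to 35.8 to 49.0 CPM in WT and 39.5 to 99.8 CPM in ADCY3∆AT; all 4 had positive log2 fold changes (median 0.60), 3 with an unadjusted p under 0.05, and edgeR called 0. The 6 endothelial markers summed to 441 to 500 CPM in WT and 441 to 496 CPM in ADCY3∆AT, with 0 called. Their log2 fold changes went both ways, 2 positive and 4 negative, and 3 had an unadjusted p under 0.05. Cldn5 was higher in all 3 ADCY3∆AT libraries (58.45, 20.3 and 17.9 CPM, log2 fold change 1.25, edgeR adjusted p = 0.13). Emcn was lower in all 3 (-0.33, edgeR adjusted p = 0.119), and Kdr was lower with overlap (-0.35, edgeR adjusted p = 0.157). For comparison, 22.6% of all tested genes had an unadjusted p under 0.05. The part of these cells in the results was not tested. In bulk tissue, fewer cells of a type and less RNA per cell cannot be told apart.

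Of the 37 genes, 2 fell in ADCY3∆AT and 0 rose at an edgeR adjusted p under 0.05. They were Pfkfb4, which makes and breaks down fructose 2,6-bisphosphate, and Pygb, the brain form of glycogen phosphorylase. Across all tested genes 4.30% were called (616, of which 377 were higher and 239 lower; with upper-quartile scaling 282 were higher and 274 lower), so the 5.41% of the list lay near the background. By direction, 2.63% of all tested genes were called higher and 1.67% lower. An unadjusted p under 0.05 was found for 12 of the 37 (3 higher, 9 lower; 32.4%), against 22.6% of all tested genes (12.4% higher, 10.2% lower). The libraries of the groups did not overlap for 12 of the 37 (1 higher, 11 lower; 32.4%), against 29.0% of all tested genes (15.1% higher, 13.9% lower). The median log2 fold change (ADCY3∆AT minus WT) was -0.06 over the list and -0.01 over all tested genes. It was below 0 for 25 of the 37, and for 51.1% of all tested genes. DESeq2 called 5 of the list, lower for Hk2, Pfkfb4, Pygb and Slc2a4 and higher for Pfkl, against 6.93% of all tested genes. limma-voom called 2, against 3.66% of all tested genes.

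**Figure D1:**
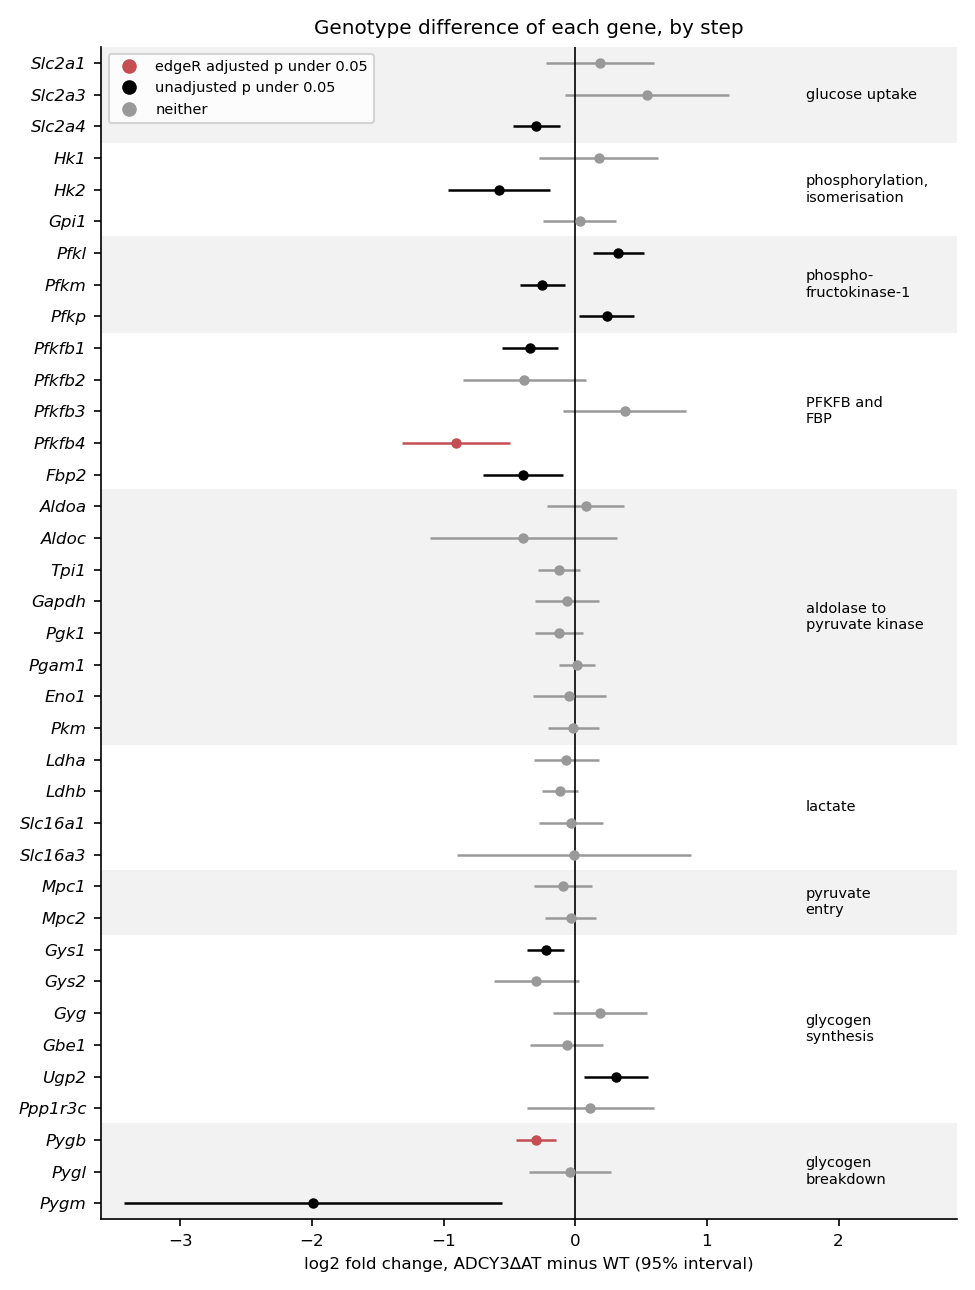
Log2 fold change of each of the 37 genes (ADCY3∆AT minus WT, x axis) with its 95% interval from edgeR, ordered by step of the pathway (y axis), n = 3 libraries per group. The intervals of Slc2a4, Hk2, Pfkm, Pfkfb1, Pfkfb4, Fbp2, Gys1, Pygb and Pygm lie wholly below 0 and those of Pfkl, Pfkp and Ugp2 wholly above it, while every interval from aldolase to pyruvate entry includes 0.

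The promoters of 4 of these genes are shown because the results turned on these genes: Pfkfb4 and Pygb, both called, Hk2, the largest difference at an entry step, and Pfkl, the 1 gene of the list whose ADCY3∆AT libraries were all higher. Each is the 250 bases before the start of the gene in RefSeq annotation of GRCm38.p6, read 5′ to 3′ on the gene's own strand. Capitals mark ACGTG or CACGT, a form of the core of sites bound by hypoxia-inducible factors. They also mark TGACG or CGTCA, the short site bound by factors of the cyclic AMP response. Other forms of the hypoxia-inducible factor core were not searched and are not marked. The regions are chr9:108991652-108991901 (plus strand) for Pfkfb4, chr2:150786546-150786795 (plus strand) for Pygb, chr6:82774455-82774704 (minus strand) for Hk2 and chr10:78009808-78010057 (minus strand) for Pfkl. The GENCODE M21 annotation, used here for symbols and exon lengths, starts Pfkfb4 at 108991778 and Pygb at 150786735, both inside these stretches. It places the whole Pfkl stretch inside the gene (chr10:77986947-78010083). The Hk2 stretch directly precedes its gene in both annotations.

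Pfkfb4: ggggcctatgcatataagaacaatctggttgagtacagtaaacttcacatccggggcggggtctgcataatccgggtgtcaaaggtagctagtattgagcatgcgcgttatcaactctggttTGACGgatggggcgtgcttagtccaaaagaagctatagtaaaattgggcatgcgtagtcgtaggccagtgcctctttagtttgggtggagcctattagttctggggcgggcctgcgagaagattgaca
Pygb: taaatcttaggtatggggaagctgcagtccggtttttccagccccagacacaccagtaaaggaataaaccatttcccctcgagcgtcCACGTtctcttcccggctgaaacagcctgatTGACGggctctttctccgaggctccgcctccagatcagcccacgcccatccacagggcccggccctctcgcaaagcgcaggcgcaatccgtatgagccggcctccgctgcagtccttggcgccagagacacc
Hk2: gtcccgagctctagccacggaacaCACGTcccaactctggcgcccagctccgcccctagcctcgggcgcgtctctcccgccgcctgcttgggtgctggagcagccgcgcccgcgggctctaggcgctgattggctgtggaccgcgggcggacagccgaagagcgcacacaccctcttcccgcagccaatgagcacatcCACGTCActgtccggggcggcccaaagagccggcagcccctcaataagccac
Pfkl: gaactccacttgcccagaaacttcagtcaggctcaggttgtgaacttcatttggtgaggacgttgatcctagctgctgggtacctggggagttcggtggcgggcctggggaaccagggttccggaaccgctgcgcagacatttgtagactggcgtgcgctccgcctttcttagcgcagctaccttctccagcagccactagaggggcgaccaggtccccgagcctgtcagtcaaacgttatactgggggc

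The Pfkfb4 stretch held TGACG once, beginning 128 bases before the RefSeq start. That of Pygb held CACGT at 163 bases and TGACG at 132 bases before the RefSeq start. That of Hk2 held CACGT at 226 and at 52 bases, the second of them overlapping CGTCA at 50 bases. The Pfkl stretch held none of these letters. Of the 37 genes, 34 had a promoter in the table, with 53 promoters in all; Gys2, Slc2a3 and Slc2a4 had none. On either strand, ACGTG was in 41.5% of the 53 and in 16.6% of all 32851 promoters of the same length. CACGTG, which overlaps it, was in 13.2% and 6.02%. TGACG was in 20.8% and 17.8%, and the full palindrome TGACGTCA, which contains it, was in 1.89% (1 promoter, of Ldha) and 1.55%. These are matches of letters, not measured sites.

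At glucose uptake, with other hexose transporters left out, Slc2a4 (GLUT4) supplied nearly all the RNA of the 3 listed transporters in both groups. Per exon length it made up 98.6% ± 0.24 of the 3 transporters listed in WT and 98.0% ± 0.32 in ADCY3∆AT (SD, n = 3). Slc2a4 stood at 561, 529 and 572 CPM in WT and 463, 481 and 410 CPM in ADCY3∆AT. Every ADCY3∆AT library lay below every WT library. The log2 fold change was -0.30 ± 0.08 (SE), 1.23-fold lower, with an edgeR adjusted p of 0.0723 and a DESeq2 adjusted p of 0.024. Slc2a1 (GLUT1), the widely expressed basal transporter, was at 6.07 to 8.35 CPM in WT and 6.99 to 9.58 CPM in ADCY3∆AT. Slc2a3 (GLUT3), the high-affinity transporter of neurons and leukocytes, was at 1.77 to 2.88 and 2.48 to 4.07 CPM. Both overlapped between the groups, with edgeR adjusted p of 0.583 and 0.281.

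Hk2, the insulin-responsive hexokinase that sits on the outer mitochondrial membrane, was at 604, 516 and 519 CPM in WT and at 301, 479 and 317 CPM in ADCY3∆AT. All 3 ADCY3∆AT libraries lay below the WT libraries, with ADCY3∆AT replicate 2 much closer to them than the other two. The log2 fold change was -0.58 ± 0.17 (SE), 1.495-fold lower, with an edgeR adjusted p of 0.0943 and a DESeq2 adjusted p of 0.00643. Without ADCY3∆AT replicate 2 it was -0.82, and edgeR then called it (adjusted p = 0.0163). Hk1, the constitutive hexokinase, was far lower, at 37.5, 33.9 and 21.5 CPM against 37.5, 29.3 and 37.8 CPM (log2 fold change 0.18, edgeR adjusted p = 0.637). Per length, Hk2 was 96.2% ± 0.85 of the sum of both in WT and 93.4% ± 2.18 in ADCY3∆AT, and the groups overlapped. With longest-transcript lengths it was 93.2% in WT and 88.5% in ADCY3∆AT. Summed per length, both hexokinases came to 178 ± 18.5 TPM (a level scaled to exon length and library) in WT and 127 ± 37.01 TPM in ADCY3∆AT. Gpi1, which turns glucose 6-phosphate into fructose 6-phosphate, had the highest level per length at this step (249.9 ± 5.74 and 264 ± 49.5 TPM). It stood at 872, 849.0 and 867.7 CPM in WT and 1004, 942 and 705 CPM in ADCY3∆AT, where 2 libraries lay above and 1 below all of WT (log2 fold change 0.03, edgeR adjusted p = 0.897).

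Phosphofructokinase-1 commits the sugar to glycolysis, and the log2 fold changes of its 3 isoforms differed in sign. Pfkl, the liver form and the most abundant here, was at 802, 867 and 751 CPM in WT and at 1053, 1068 and 919 CPM in ADCY3∆AT. Pfkm, the muscle form, was at 95, 98.2 and 98.8 CPM in WT and at 87.1, 75.0 and 83.5 CPM in ADCY3∆AT. So the ADCY3∆AT libraries of Pfkl all lay above WT, and those of Pfkm all lay below. Neither was called by edgeR. The log2 difference was 0.33 ± 0.09 (SE; edgeR adjusted p = 0.0706) for Pfkl and -0.25 ± 0.07 (SE; edgeR adjusted p = 0.0985) for Pfkm. DESeq2 called Pfkl (adjusted p = 0.0156) and not Pfkm (adjusted p = 0.109). Pfkp, the platelet form, was at 95, 100.1 and 89.0 CPM against 112, 124 and 99.9 CPM, and the groups overlapped by 1 library (log2 fold change 0.24, edgeR adjusted p = 0.169).

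Per exon length, the Pfkl share of the 3 isoforms was 77.2%, 77.9% and 75.7% in the WT libraries and 82.1%, 83.5% and 80.9% in those of ADCY3∆AT. The Pfkm share was 18.3%, 17.6% and 19.9% against 13.6%, 11.7% and 14.7%. The groups were apart for both shares, and the difference of the Pfkl share was 5.24 points. With the length of the longest transcript in place of the union of exons it was 3.92 points. The Pfkp share overlapped (4.498% ± 0.05 and 4.52% ± 0.27). Exons of Pfkm overlap those of Senp1 and Gm26513, and exons of Pfkp overlap those of Pitrm1. The sources used here do not say whether counting used the strand, and such reads then cannot be told apart. The 3 isoforms summed to 294 ± 15.6 TPM in WT and 356 ± 32.9 TPM in ADCY3∆AT.

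**Figure D2:**
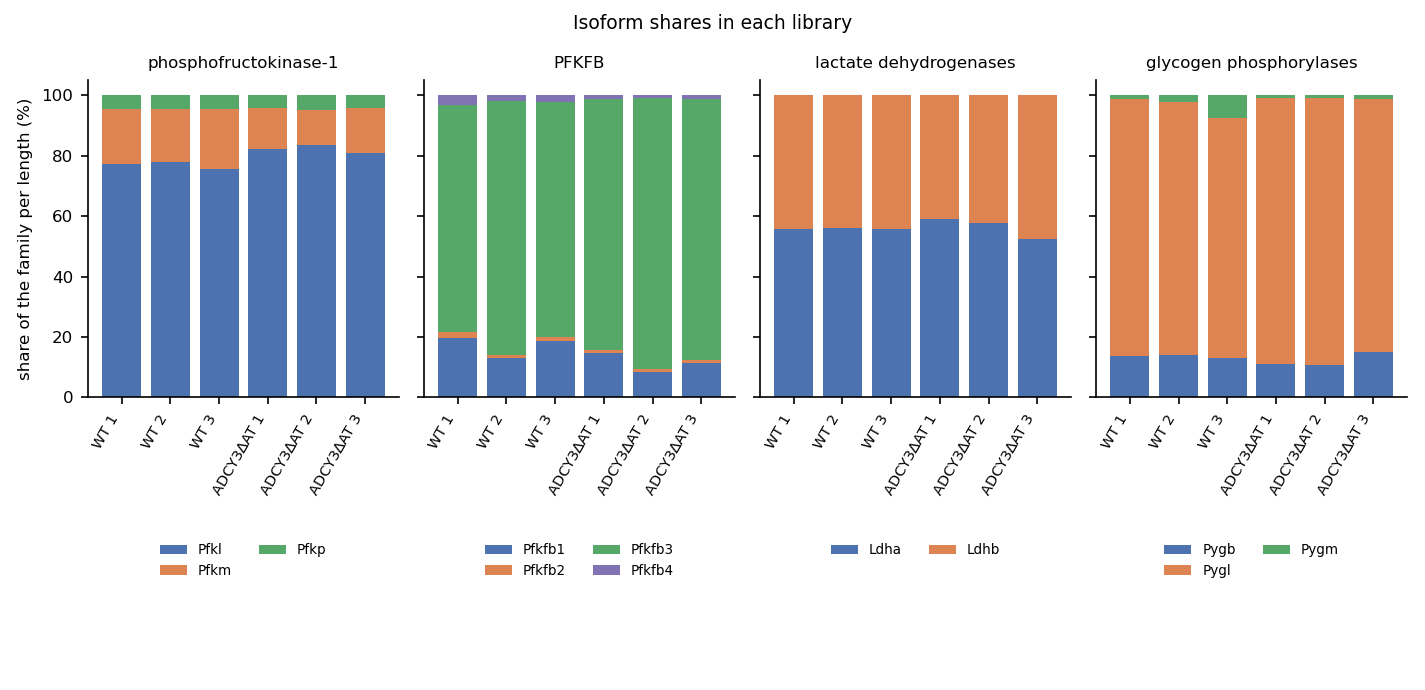
Share of each isoform in its family's level per exon length (y axis, percent) in each of the 6 libraries (x axis), for phosphofructokinase-1, the PFKFB enzymes, lactate dehydrogenase and glycogen phosphorylase. The Pfkl part of the bar is taller in all 3 ADCY3∆AT libraries than in any WT library, and the Pfkfb4 part is shorter.

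The PFKFB enzymes make and degrade fructose 2,6-bisphosphate, which activates phosphofructokinase-1. Pfkfb4 (ENSMUSG00000025648, GRCm38 chr9:108991778-109032228, plus strand) fell in ADCY3∆AT. Its level was 6.66, 5.32 and 5.58 CPM in WT and 2.70, 3.39 and 3.29 CPM in ADCY3∆AT. The highest ADCY3∆AT library was well below the lowest WT library. On the log2 scale the change was -0.91 ± 0.18 (SE), with a 95% interval of -1.32 to -0.50, or 1.87-fold lower (edgeR adjusted p = 0.0336, DESeq2 0.0087, limma-voom 0.0341). The exact permutation p was 0.1, the smallest that 3 against 3 allows. The log2 fold change lay between -0.97 and -0.80 when any 1 library was left out, but the edgeR call ended each time (adjusted p from 0.0649 to 0.134).

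Pfkfb4 was a small part of its family. Per length, Pfkfb3, the inducible form with the strongest kinase bias, made up 79.0% ± 4.54 of the family in WT and 86.4% ± 3.30 in ADCY3∆AT. Pfkfb3 stood at 240, 366 and 280 CPM in WT and 281, 474 and 395 CPM in ADCY3∆AT, and the groups overlapped widely (log2 fold change 0.38 ± 0.20, SE; edgeR adjusted p = 0.319). The Pfkfb4 share was 2.51% ± 0.67 in WT and 1.12% ± 0.12 in ADCY3∆AT, with no overlap. Pfkfb1, the liver and muscle form, was at 33.6, 30.2 and 35.5 CPM against 26.4, 24.1 and 27.8 CPM. The groups were apart, and the log2 fold change was -0.34 ± 0.09 (SE; edgeR adjusted p = 0.0775); exons of Pfkfb1 overlap those of Apex2. Pfkfb2, the heart form, ranged from 4.36 to 5.42 CPM in WT and from 2.97 to 4.45 CPM in ADCY3∆AT (edgeR adjusted p = 0.305). Fbp2, the muscle fructose-bisphosphatase that runs the phosphofructokinase step backwards, was at 36.9, 36.4 and 36.1 CPM against 30.6, 31.1 and 21.7 CPM. Its groups were apart, and ADCY3∆AT replicate 3 was the lowest (log2 fold change -0.39 ± 0.13, SE; edgeR adjusted p = 0.131).

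**Figure D3:**
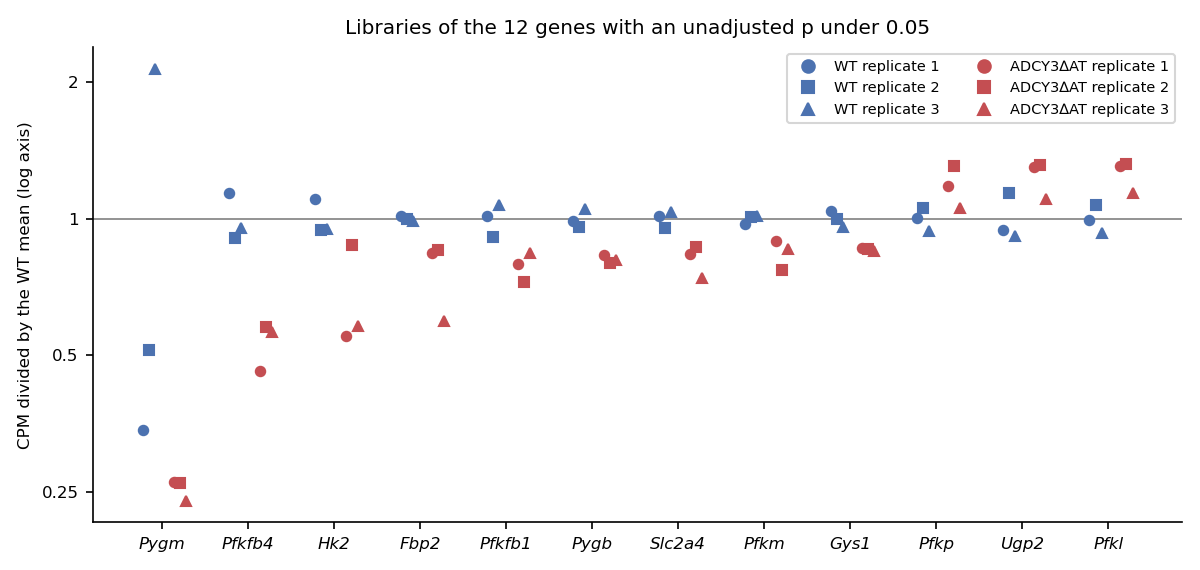
CPM of each library divided by the WT mean of the gene (y axis, log axis) for the 12 genes with an unadjusted p under 0.05 (x axis), with 1 point per library, coloured by group and shaped by replicate number. The groups do not overlap for Pfkfb4 and Pygb, ADCY3∆AT replicate 2 of Hk2 lies near the WT libraries, and WT replicate 3 of Pygm lies far above the rest.

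The 8 genes from aldolase to pyruvate kinase cover the later steps of glycolysis, which yield ATP and pyruvate. Of these, edgeR, limma-voom and DESeq2 each called 0, against 4.30%, 3.66% and 6.93% of all tested genes. An unadjusted p under 0.05 was found for 0 of the 8, against 22.6% of all tested genes. So few genes cannot show a departure from these shares. Aldoa, which splits fructose 1,6-bisphosphate, was the most abundant per length (2251 ± 123 TPM in WT and 2448 ± 461 TPM in ADCY3∆AT). It was at 3631, 3324 and 3560 CPM in WT and at 4336, 3816 and 2953 CPM in ADCY3∆AT, so that ADCY3∆AT replicate 3 lay below WT and the other two above. A second row with the symbol Aldoa, for a short neighbouring gene model, held 0.68 to 1.06 CPM and was not counted as a further member. The intervals were narrow at most of these steps. For Pgam1, the mutase, the log2 fold change was 0.01 with a 95% interval of -0.13 to 0.15, and for Pkm, the pyruvate kinase, it was -0.01 with an interval of -0.21 to 0.18. For Gapdh, the dehydrogenase often used as a reference gene, it was -0.06 (-0.31 to 0.18), for Eno1, the enolase, -0.05 (-0.32 to 0.23), for Tpi1, the triose isomerase, -0.12 (-0.28 to 0.04), and for Pgk1, the first ATP-yielding kinase, -0.12 (-0.30 to 0.06). Aldoc, the brain aldolase, was low at 1.10 to 2.02 CPM, and its interval was wide (-1.11 to 0.31). Over the 37 genes, 24 had a 95% interval that stayed within 1.5-fold in either direction. Aldoa, Tpi1, Gapdh, Pgk1, Pgam1, Eno1, Pkm and Ldha have processed pseudogene copies, and how reads were divided among them is uncertain.

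At these later steps ADCY3∆AT replicate 3 was the lowest of its group in 7 of these 8 genes and in 25 of all 37 (67.6%), against 32.5% of all tested genes. Eno1 shows it, with 3454, 3513 and 2530 CPM in ADCY3∆AT and 3190, 3272 and 3348 CPM in WT. Without this library the log2 fold changes of Gapdh, Eno1, Pkm, Ldha, Mpc2, Gbe1, Pygl and Slc16a3 turned positive, at values of 0.04 to 0.28, and none of them was called.

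**Figure D4:**
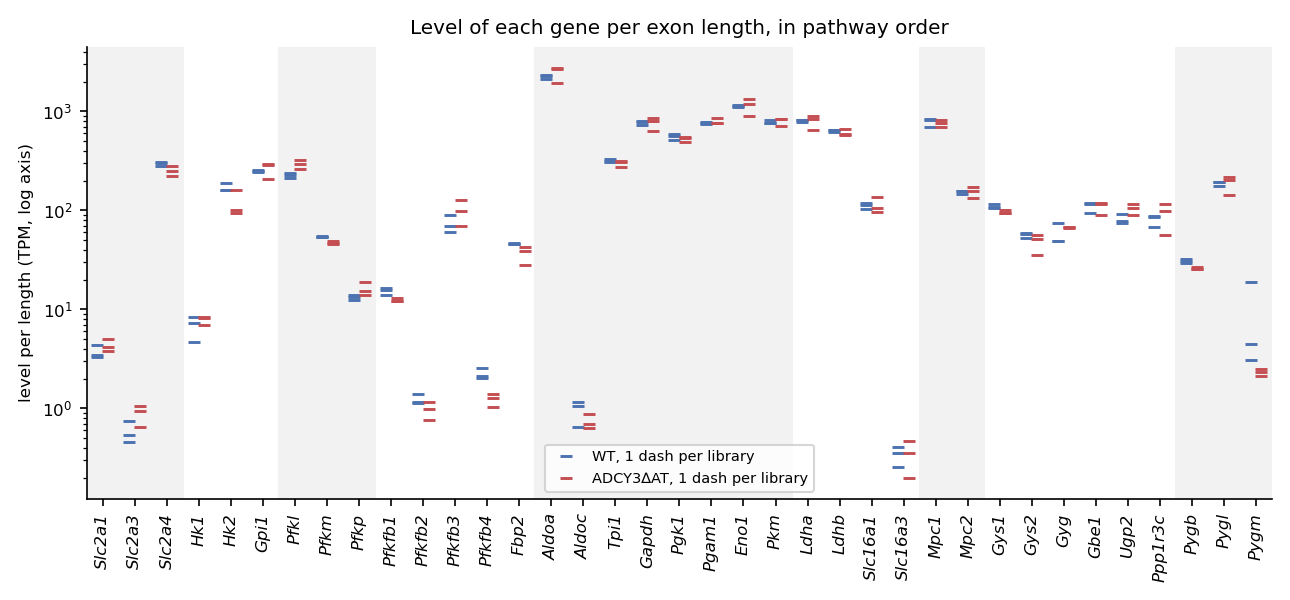
Level of each of the 37 genes per exon length in pathway order (x axis), in TPM on a log axis (y axis), with 1 dash per library. Aldoa stands highest, and most enzymes from Tpi1 to Ldhb and Mpc1 follow. Slc2a4, Gpi1, Pfkl and Pfkfb3 lead their own steps, and Slc16a3, Slc2a3 and Aldoc lie at the bottom.

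For lactate handling and pyruvate entry, edgeR called 0 of 6 genes (4.30% of all tested genes). An unadjusted p under 0.05 was found for 0 of them, against 22.6% of all tested genes. So few genes cannot show a departure from these shares. Ldha, the pyruvate-reducing subunit of lactate dehydrogenase, was at 1443, 1402 and 1444 CPM in WT and 1494, 1472 and 1130 CPM in ADCY3∆AT (edgeR adjusted p = 0.76). Ldhb, the subunit that favours lactate oxidation, was at 544, 519 and 547 CPM against 490, 511 and 486 CPM. Its groups were apart by a narrow margin (log2 fold change -0.12, edgeR adjusted p = 0.307). Per length, Ldha made up 55.8% ± 0.30 of the 2 subunits in WT and 56.4% ± 3.52 in ADCY3∆AT. The share depends on the length used, and with longest-transcript lengths it was 65.7% in WT and 66.2% in ADCY3∆AT. Slc16a1 (MCT1), a lactate and pyruvate transporter, was at 245 to 284 CPM in WT and 230 to 300 CPM in ADCY3∆AT, while Slc16a3 (MCT4), the lactate exporter of glycolytic cells, was at 0.56 to 1.38 CPM over all 6 libraries. Mpc1 and Mpc2 form the carrier that takes pyruvate into mitochondria. Mpc1, the higher of the pair per length, was at 931, 784 and 906 CPM against 914, 787 and 761 CPM, and Mpc2 ranged from 580 to 619 CPM against 518 to 625 CPM. The groups overlapped for both (edgeR adjusted p = 0.621 and 0.851).

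Among the 6 genes of glycogen synthesis edgeR called 0, as did limma-voom and DESeq2. The unadjusted p was under 0.05 for 2 of them (33.3%, against 22.6% of all tested genes). Gys1, the glycogen synthase of muscle and fat, was at 291, 279 and 269 CPM in WT and at 241, 240 and 237 CPM in ADCY3∆AT. The ADCY3∆AT libraries lay within a few CPM of each other and below all of WT. Its log2 fold change was -0.22 ± 0.06 (SE), 1.17-fold lower (edgeR adjusted p = 0.0784, DESeq2 0.0598, limma-voom 0.0725). Exons of Gys1 overlap those of Ruvbl2 on the other strand. Gys2, the liver synthase, was at 83.9, 75.6 and 81.5 CPM against 72.7, 73.9 and 50.1 CPM, apart between the groups, with edgeR adjusted p = 0.258. Per length Gys1 was 65.9% ± 1.28 of the pair in WT and 67.2% ± 4.55 in ADCY3∆AT. With longest-transcript lengths it was 71.55% in WT and 72.67% in ADCY3∆AT. Ugp2, which makes the UDP-glucose that synthase uses, was at 126, 152 and 122 CPM against 174, 175 and 147 CPM. ADCY3∆AT replicate 3 lay below WT replicate 2, and the log2 fold change was 0.31 ± 0.10 (SE; edgeR adjusted p = 0.131).

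The other three genes of this step overlapped between the groups. Gbe1, the branching enzyme, was the highest of them per length and was at 331, 342 and 270 CPM in WT and 332, 315 and 256 CPM in ADCY3∆AT (log2 fold change -0.06, edgeR adjusted p = 0.806). Gyg, the glycogenin that primes each granule, was at 61.1 to 93.5 CPM against 76.9 to 86.3 CPM. Ppp1r3c, a scaffold that brings protein phosphatase 1 to glycogen, was at 101 to 127 CPM against 83.5 to 157 CPM.

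At glycogen breakdown, Pygb (ENSMUSG00000033059, GRCm38 chr2:150786735-150831758, plus strand) fell in ADCY3∆AT. Its level was 78.6, 76.1 and 83.3 CPM in WT and 66.1, 63.4 and 64.3 CPM in ADCY3∆AT. The spread within each group was smaller than the distance between them. The log2 fold change was -0.30 ± 0.07 (SE), with a 95% interval of -0.45 to -0.14, or 1.23-fold lower (edgeR adjusted p = 0.0468, DESeq2 0.031, limma-voom 0.049), and the exact permutation p was again 0.1. Leaving out any 1 library ended the call (edgeR adjusted p from 0.0774 to 0.161, log2 fold change from -0.32 to -0.26), as did testing without a filter on low counts (adjusted p = 0.0757).

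The liver form Pygl was the main phosphorylase of the tissue, with 82.7% ± 3.07 of the family per length in WT and 86.7% ± 2.47 in ADCY3∆AT. It stood at 699, 652 and 720 CPM against 750, 748 and 518 CPM, and the groups overlapped (log2 fold change -0.04, edgeR adjusted p = 0.897). The Pygb share was 13.6% ± 0.44 and 12.3% ± 2.32, and overlapped as well; with longest-transcript lengths it was 8.30% and 7.33%. Summed per length, the 3 phosphorylases came to 227 ± 18.7 TPM in WT and 216 ± 41.4 TPM in ADCY3∆AT.

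Pygm, the muscle phosphorylase, had the largest log2 fold change of the list, at -1.99 ± 0.63 (SE), and was not called (edgeR adjusted p = 0.112). It was at 5.22, 7.83 and 32.7 CPM in WT and at 4.02, 3.99 and 3.64 CPM in ADCY3∆AT. The WT values were apart from each other as well as from ADCY3∆AT, and without WT replicate 3 the log2 fold change was -0.75. Markers of skeletal muscle had the same order of libraries. Their sum over 16 genes was 27.0, 128 and 747 CPM in WT and 3.74, 2.99 and 2.13 CPM in ADCY3∆AT. Of the 12 markers tested, edgeR called 8 lower in ADCY3∆AT (DESeq2 called 12, limma-voom 0). Over all tested genes the shares called in either direction were 4.30%, 6.93% and 3.66%. No marker exceeded 0.80 CPM in any ADCY3∆AT library, so those tested passed the low-count filter by their WT levels. They could hardly be called other than lower, and their count is not separate support for a fall. Cacna1s and Pvalb were at 0 in every ADCY3∆AT library. Pgam2 and Eno3, the muscle forms of the mutase and the enolase, were also highest in WT replicate 3, with Pgam2 at 1.37, 1.85 and 5.75 CPM in WT and 0.55, 0.53 and 1.06 CPM in ADCY3∆AT. Eno3 was at 7.51, 8.79 and 22.1 CPM against 8.04, 5.98 and 7.69 CPM. The part of muscle RNA in the Pygm difference was not tested. Among the WT libraries, Pygb, Pfkm, Slc2a4 and Pfkfb1 were also highest in replicate 3, whereas Gys1 was lowest there and Hk2 and Pfkfb4 were highest in replicate 1. Without WT replicate 3 the log2 fold change of Pygb was -0.26 (edgeR adjusted p = 0.106), and the part of muscle RNA in these differences was not tested. Over the list, WT replicate 3 was the highest of its group in 14 of 37 genes (37.8%), against 36.3% of all tested genes.

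**Figure D5:**
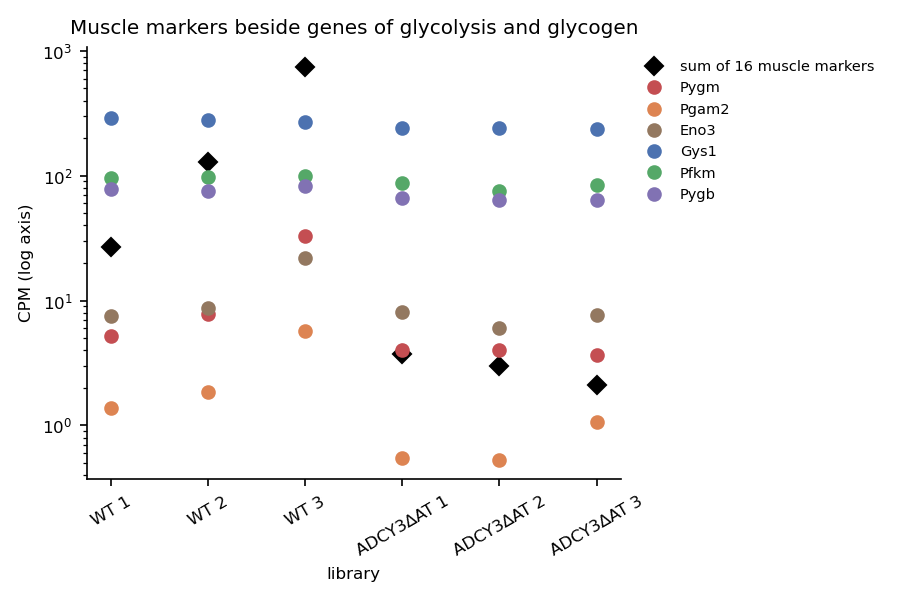
Level in each library (x axis) of the summed 16 skeletal muscle markers (diamonds) and of Pygm, Pgam2, Eno3, Gys1, Pfkm and Pygb (circles), in CPM on a log axis (y axis). The marker sum runs from 27.0 to 747 CPM over the WT libraries and stays under 4 CPM in ADCY3∆AT; Pygm, Pgam2 and Eno3 peak in WT replicate 3, Pfkm and Pygb are also highest there by a small margin, and Gys1 is the lowest of WT there.

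Around these members, 56 further genes of glucose transport, glycolysis, gluconeogenesis, lactate and glycogen metabolism were read from the same fit. Of these 42 were tested, and by edgeR 1 fell and 0 rose (2.38% called, against 4.30% of all tested genes). An unadjusted p under 0.05 was found for 8 (2 higher, 6 lower, 19.0%). The share over all tested genes was 22.6% (12.4% higher, 10.2% lower). The gene that fell was Ppp1r3b (GRCm38 chr8:35375739-35388139), a scaffold that brings protein phosphatase 1 to glycogen and thereby activates glycogen synthase. It was at 688, 651 and 613 CPM in WT and at 296, 444 and 334 CPM in ADCY3∆AT. Every ADCY3∆AT library was well below every WT library. On the log2 scale the change was -0.86 ± 0.14 (SE), 1.82-fold lower (edgeR adjusted p = 0.0167, DESeq2 4.36e-08, limma-voom 0.0152). It stayed between -1.04 and -0.73 when 1 library was left out, but the edgeR call ended without WT replicate 1 (adjusted p = 0.077), WT replicate 2 (0.0505) or ADCY3∆AT replicate 3 (0.0535). ADCY3∆AT replicate 2 was the highest of its group for Ppp1r3b and for Hk2, and replicate 1 the lowest.

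Gaa, the lysosomal enzyme that digests glycogen, was at 77.2, 75.8 and 74.5 CPM in WT and 89.3, 88.5 and 96.7 CPM in ADCY3∆AT. Every ADCY3∆AT library lay above every WT library (log2 fold change 0.27, edgeR adjusted p = 0.0589, DESeq2 0.0485).

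In the pentose phosphate pathway, which draws on glucose 6-phosphate to make NADPH and ribose, edgeR called 0 of 8 genes, with 3 at an unadjusted p under 0.05 (37.5%, against 22.6% of all tested genes) and 2 called by DESeq2 (which called 6.93% of all tested genes; limma-voom called 0 of the 8). H6pd, the glucose 6-phosphate dehydrogenase of the endoplasmic reticulum, was at 210, 221 and 227 CPM in WT and 414, 286 and 274 CPM in ADCY3∆AT (log2 fold change 0.56, edgeR adjusted p = 0.072). Rpia, the ribose phosphate isomerase, was at 25.3, 27.2 and 29.4 CPM against 16.6, 23.5 and 19.0 CPM (log2 fold change -0.47, edgeR adjusted p = 0.0825). The groups were apart for both. For Pgls, the lactonase, the log2 fold change came to -0.23 (edgeR adjusted p = 0.123).

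Of 9 transcription factors known to act on glycolytic genes, edgeR and limma-voom called 0. An unadjusted p under 0.05 was found for 2 (22.2%, against 22.6% of all tested genes). DESeq2 called 1 of the 9, and 6.93% of all tested genes. Myc, a driver of glycolytic genes in growing cells, was at 2.61, 3.25 and 1.92 CPM in WT and 7.60, 4.52 and 4.76 CPM in ADCY3∆AT, with the groups apart (log2 fold change 1.13 ± 0.28, SE; edgeR adjusted p = 0.0615). For Foxk1, a forkhead factor that induces glycolytic enzymes, the log2 fold change came to 0.42 (edgeR adjusted p = 0.114), and for its relative Foxk2 to 0.12 (edgeR adjusted p = 0.341). For Hif1a, the oxygen-regulated subunit of a hypoxia-inducible factor, it was 0.05 (edgeR adjusted p = 0.879).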

How the data were processed

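Estimated counts of 54385 genes in 6 libraries were deposited by the authors in 1 table. A GENCODE M21 symbol was found for 54131 of them, and 38.0% of the values above 0 were whole within 0.0005. Per the submitters' processing notes, GRCm38, StringTie, Salmon and edgeR were used, with no versions or roles. Per the labels' protocols, RNA was extracted with TRIzol and spin columns, and a NEBNext Ultra II kit gave paired-end libraries. The sources used here do not say whether counting used the strand.

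Counts were rounded, and genes were kept with filterByExpr by group (minimum count 10, minimum total 15). Libraries were scaled by TMM (trimmed mean of M-values). In R 4.3.3, edgeR 4.0.16 tested the groups with its quasi-likelihood F test, two-sided and without covariates, on all 14332 genes. Adjusted p are Benjamini-Hochberg over all of them, called under 0.05. CPM are TMM-scaled; TPM were computed here from the counts and the union of exons in GENCODE M21, and allow comparison between genes. Exact permutation tests were two-sided on log2(CPM + 0.5), with a smallest p of 0.1. The edgeR test was also run on simulated counts, drawn independently for each gene. Such counts hold no shift shared by many genes of a library, so that run does not cover such shifts.

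Each library counted as 1 replicate, since pairs within a group were further apart than counting noise (6.34 to 26.6 chi-square units per gene). The sources used here do not say that replicates were separate mice, and p-values then measure only the spread between these libraries, which may be technical. The members and the other lists were chosen with earlier results of these data known. Members that were called, had an unadjusted p under 0.05 or led a step per length are given with every library's value; from the other lists, genes that were called, or otherwise the 3 with the smallest p, are named, with the muscle forms Pgam2 and Eno3 and the regulator Hif1a added after their values were seen. A gene that this rule would name is not reported here. Alternatives were upper-quartile factors or DESeq2's size factors, limma-voom (limma 3.58.1), DESeq2 1.42.0 with its Wald test, no filter, CPM above 1 in 3 libraries, a threshold of 0.10, the replicate number as a block, longest-transcript lengths, and leaving out each library.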

Additional observations from a re-analysis of the deposited data

How the results depend on the processing

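The list held 2 calls. It also held 2 with limma-voom, the CPM filter, upper-quartile factors or DESeq2's size factors. There were 5 with DESeq2's Wald test, 8 with no filter, 8 at a threshold of 0.10, and 0 to 1 without 1 library (Hk2, without ADCY3∆AT replicate 2). Over all tested genes the calls numbered 616, and 993 with the Wald test, 1951 with no filter, 1375 at 0.10 and 162 to 461 without 1 library. The replicate numbers did not pair the libraries (correlations of same-numbered deviations of 0, -0.01 and -0.05). With the number as a replicate block, 0 of the list and 324 of all genes were called; Pfkfb4 had an edgeR adjusted p of 0.0855 and Pygb of 0.0992, and Ppp1r3b kept its call.

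The log2 fold change kept its sign in every alternative for 23 of the 37 genes. It turned for Gpi1 (-0.00369) and Pgam1 (-0.0256) with upper-quartile factors, under which the median of all genes was -0.05, and for Pkm (0.0108) and Slc16a3 (0.0161) with no filter. Without 1 library, the ranges that crossed 0 were -0.0319 to 0.343 for Hk1, -0.0579 to 0.175 for Gpi1, -0.0414 to 0.219 for Aldoa, -0.165 to 0.0416 for Gapdh, -0.0092 to 0.0347 for Pgam1, -0.125 to 0.093 for Eno1, -0.0742 to 0.0577 for Pkm, -0.127 to 0.0545 for Ldha, -0.149 to 0.0532 for Slc16a1, -0.377 to 0.279 for Slc16a3, -0.0742 to 0.0496 for Mpc2, -0.162 to 0.0432 for Gbe1, -0.0549 to 0.357 for Ppp1r3c and -0.121 to 0.119 for Pygl. The cause was not tested. Slc16a3 had no value under the CPM filter. Low genes such as Slc16a3, Slc2a3, Aldoc and Pfkfb4 rest on few counts per library, which limits their precision.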
